A study of Homo sapiens with 6 samples.

Results

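The messages of 38 genes of sterol and fatty acid supply and export were compared between MDA-MB-231 cells carrying an shRNA against MYOSIN10 and MDA-MB-231 cells carrying a scrambled shRNA. The genes were chosen by name as genes under sterol regulatory element-binding proteins (SREBPs). The list includes the cholesterol exporters ABCA1 and ABCG1, which are induced by LXR receptors. Each gene was read from its brightest probe set, a group of short oligonucleotides that reads 1 stretch of transcript, among those annotated with a single gene symbol. Of the 38, 34 had such a probe set and all 34 passed the filter on dim probe sets, out of 14174 genes measured. FDFT1 and ACSL3 have no probe set in the annotation used here, and CYP51A1 and FADS1 share theirs with a second symbol, so these 4 were not analysed here. The 34 comprise 15 sterol enzymes, 12 fatty acid enzymes, 4 regulators and 3 sterol carriers or exporters.

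MDA-MB-231 is an established human triple-negative breast cancer line, and both groups are that line, grown in L-15 medium with serum. One group of 3 arrays stably expressed MYOSIN10 shRNA (the target gene is now named MYO10, a motor protein of filopodia) and the other 3 stably expressed scramble shRNA. The labels do not say whether the stable cells were clones or pools, how many hairpins were used, or whether samples of a group came from separate cultures, so the p-values speak only of how far these samples spread, and that spread could be technical. In bulk RNA, fewer cells with a message and less message per cell cannot be told apart.

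Cholesterol and fatty acids are both built from acetyl-CoA. SREBPs are transcription factors held in the membrane of the endoplasmic reticulum by SCAP and the INSIG proteins while sterols are plentiful. When sterols run low, SCAP escorts them to the Golgi, proteases release the active part, and it binds sterol regulatory elements, often beside a CCAAT box bound by NF-Y. SREBF2 encodes the form that mainly drives sterol synthesis, and SREBF1 the forms that mainly drive fatty acid synthesis.

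The arrays resembled each other, with correlations between 0.978 and 0.987 for pairs of arrays over the genes tested. MYO10 stood at 11.57, 11.96 and 11.86 on scramble arrays 1 to 3 and at 10.70, 11.39 and 10.64 on MYOSIN10 shRNA arrays 1 to 3, in log2(signal + 16), the scale of all levels below. Its message was at 54.2% of the scramble level (limma, Benjamini-Hochberg adjusted p = 0.0303). These values are from the brightest of its 5 probe sets, and the others are not reported here. Markers of the line, VIM, CD44, CAV1, AXL and MSN, lay between the 99.1 and 99.7 percentile of all probe sets on every array, and CDH1 and PGR did not pass the filter. ESR1 lay between the 58.2 and 64.9 percentile and GATA3 between the 83.8 and 87.4, so GATA3, listed as a dim marker, was not dim. Of 4 markers of blood, endothelial and liver cells, PTPRC and ALB did not pass the filter, and CD3E and PECAM1 passed at low levels of at most 6.58 and 7.15.

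No member passed the test over all genes. At a Benjamini-Hochberg adjusted p under 0.05 from limma, 0 of 34 were called, against 1.62% of all genes tested, and the smallest adjusted p among the members was 0.107. At an unadjusted p under 0.05, 8 of 34 members (23.5%) were higher in MYOSIN10 shRNA cells, against 8.49% of all genes, and 0 were lower, against 6.39% of all genes. The 8 were the transcription factor SREBF1, the fatty acid enzymes SCD, FASN, FADS2 and ME1, the sterol enzymes DHCR7 and EBP, and the sterol carrier STARD4. All counts of members here rest on each gene's brightest probe set, and dimmer kept probe sets went both ways. At an unadjusted limma p under 0.05, ELOVL6, IDI1, LSS and ELOVL5 had a dimmer probe set that was lower. DHCR7, LPIN1 and INSIG1 had a dimmer probe set that was higher. All 3 MYOSIN10 shRNA arrays lay above all 3 scramble arrays for 7 members (20.6%), against 11.2% of all genes, and below them for 0, against 8.56% of all genes. Positive log2 fold changes, MYOSIN10 shRNA over scramble, were found for 23 of 34 (67.6%), against 51.8% of all genes. The median log2 fold change was 0.072 over the 34 members and 0.0093 over all genes. The count of 8 became 4 without MYOSIN10 shRNA array 3 and 5 without MYOSIN10 shRNA array 2, where 6.01% and 8.43% of all genes were higher. The count of called members became 1 without scramble array 2 (ME1, limma adjusted p = 0.0365) and 4 without both arrays numbered 2, when SREBF1, ME1, TM7SF2 and ACSL4 were called. It became 2 with array weights, SCD and SREBF1 (limma adjusted p = 0.0494 and 0.0363). Calls over all 14174 genes rose as well, from 229 to 964, 1224 and 791 in the same settings. The counts of members describe a list chosen with results of these data known, and no test was made on them. Below, a value that a gene or probe set gave is its log2 fold change with its 95% interval, and levels stand in the order of arrays 1 to 3, scramble shRNA against MYOSIN10 shRNA.

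**Figure D1:**
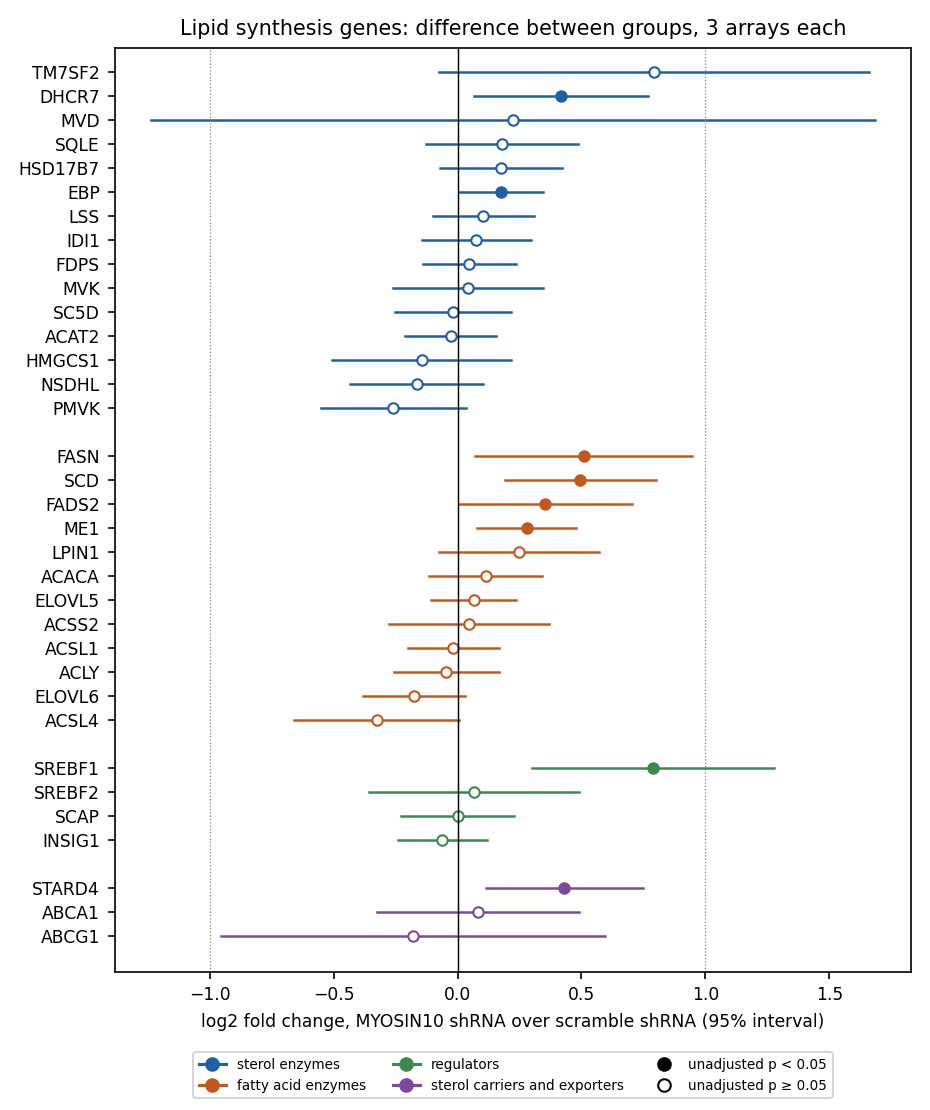
Log2 fold change of each of the 34 measured genes (MYOSIN10 shRNA over scramble shRNA, 3 arrays each) with its 95% confidence interval from limma, by role; filled points have an unadjusted p under 0.05 and dotted lines mark 2-fold changes. The 8 filled points all lie to the right of 0, from 0.18 for EBP to 0.79 for SREBF1.

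Among the regulators, SREBF1 had the largest difference and the other 3 had values near 0. SREBF1 stood at 7.14, 6.80 and 6.99 with scramble shRNA and at 8.06, 7.35 and 7.87 with MYOSIN10 shRNA. Its scramble levels were dim, within the 6.62 to 7.33 of ESR1, a marker listed as absent or dim. The SREBF1 groups did not overlap, and MYOSIN10 shRNA array 2 was the lowest of its group. The means were 6.97 ± 0.17 and 7.76 ± 0.37 (SD, n = 3 each), a 1.73-fold difference with a 95% confidence interval of 1.23 to 2.42 and a limma adjusted p of 0.11. Its second probe set did not pass the filter and gave 0.053. The annotation does not say which of the SREBP-1 forms that the gene encodes this probe set reads.

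For SREBF2, SCAP and INSIG1 the groups overlapped. SREBF2 stood at 6.99, 7.30 and 7.28 against 7.20, 7.26 and 7.31, a log2 fold change of 0.068 with an interval of -0.36 to 0.49 (limma adjusted p = 0.913). Its dimmer probe sets gave 0.19 and 0.42, with overlapping groups. The SREBF2 levels above also lay within the range of ESR1, so its value near 0 comes from a dim signal. SCAP, the escort of SREBPs, had 0.00085 (-0.23 to 0.23). INSIG1, which retains the SCAP complex and is itself a sensitive SREBP target, stood at 11.44, 11.32 and 11.33 against 11.38, 11.26 and 11.26. Its log2 fold change was -0.061, with an interval of -0.24 to 0.12 that leaves out a 1.5-fold change in either direction. The dimmest kept probe set of INSIG1 stood higher on all MYOSIN10 shRNA arrays (0.28, limma adjusted p = 0.379 among all kept probe sets), while the next brightest gave -0.12.

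**Figure D2:**
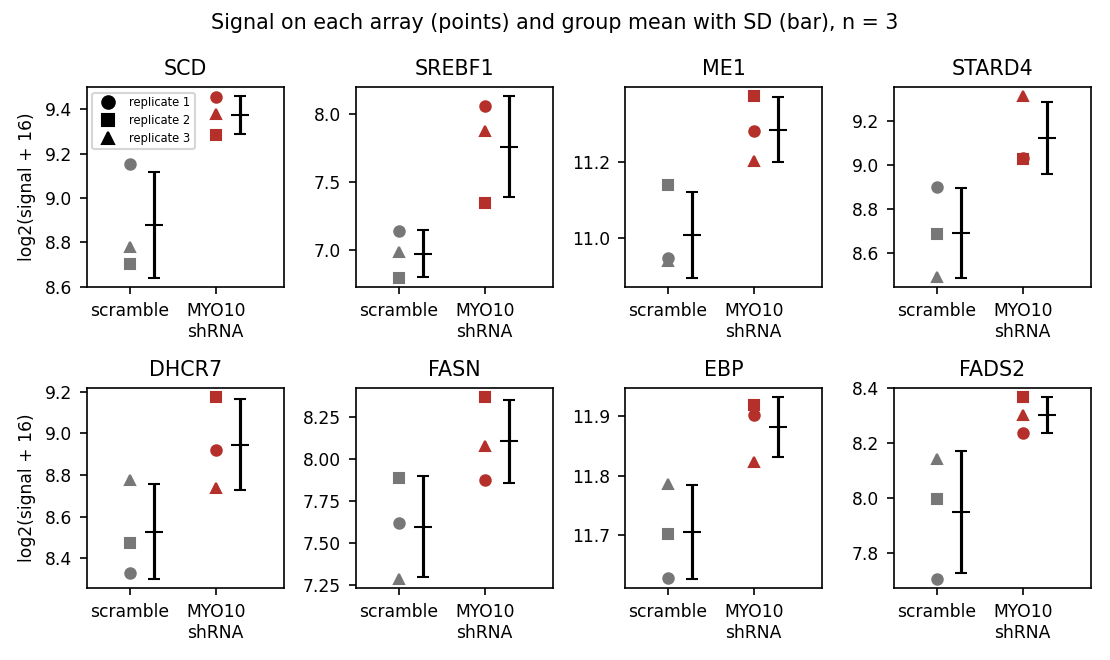
Log2(signal + 16) on each array for the 8 genes with an unadjusted limma p under 0.05, scramble shRNA in grey and MYOSIN10 shRNA in red, with marker shapes for the replicate number and bars for the group mean and SD (n = 3). The groups overlap for DHCR7 and FASN and are apart for SCD, SREBF1, ME1, STARD4, EBP and FADS2; each panel has its own axis.

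The 250 bases before the annotated start are shown for SREBF1, SCD and STARD4, which had the smallest p among the regulators, fatty acid enzymes and carriers. HMGCS1 and SREBF2 are shown as classical sterol-responsive genes whose intervals included 0. Sequences are from RefSeq on GRCh38.p14, written 5′ to 3′ on the gene's strand, with capitals for matches to the sterol regulatory element core TCACNCCAC or the CCAAT box on either strand, where ATTGG is CCAAT on the other strand. They lie at chr17:17836987-17837236 (minus strand, SREBF1), chr10:100346983-100347232 (plus, SCD), chr5:111512536-111512785 (minus, STARD4), chr5:43313413-43313662 (minus, HMGCS1) and chr22:41832855-41833104 (plus, SREBF2).
SREBF1: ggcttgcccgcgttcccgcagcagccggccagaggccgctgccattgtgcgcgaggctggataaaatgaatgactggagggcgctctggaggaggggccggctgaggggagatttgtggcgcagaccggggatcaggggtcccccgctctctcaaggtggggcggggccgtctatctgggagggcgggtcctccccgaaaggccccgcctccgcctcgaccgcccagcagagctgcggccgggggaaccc
SCD: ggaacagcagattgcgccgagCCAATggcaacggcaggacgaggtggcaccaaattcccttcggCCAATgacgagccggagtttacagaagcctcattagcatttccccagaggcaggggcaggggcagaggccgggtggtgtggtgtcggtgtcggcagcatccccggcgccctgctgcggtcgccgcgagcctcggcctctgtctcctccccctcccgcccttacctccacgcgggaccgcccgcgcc
STARD4: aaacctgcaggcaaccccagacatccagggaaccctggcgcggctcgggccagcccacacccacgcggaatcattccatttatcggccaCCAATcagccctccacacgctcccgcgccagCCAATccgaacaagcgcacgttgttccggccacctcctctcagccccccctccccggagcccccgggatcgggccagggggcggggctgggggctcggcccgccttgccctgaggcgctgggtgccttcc
HMGCS1: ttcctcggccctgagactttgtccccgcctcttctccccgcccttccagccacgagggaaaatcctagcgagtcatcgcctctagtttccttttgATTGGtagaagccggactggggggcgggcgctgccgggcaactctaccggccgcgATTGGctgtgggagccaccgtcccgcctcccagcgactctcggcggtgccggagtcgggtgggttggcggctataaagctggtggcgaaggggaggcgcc
SREBF2: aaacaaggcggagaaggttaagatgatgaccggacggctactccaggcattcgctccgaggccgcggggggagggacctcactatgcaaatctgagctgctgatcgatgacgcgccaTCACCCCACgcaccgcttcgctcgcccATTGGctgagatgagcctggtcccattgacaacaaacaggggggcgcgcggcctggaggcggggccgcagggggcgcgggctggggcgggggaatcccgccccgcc

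SCD and STARD4 each held a pair of CCAAT boxes on the gene's strand, HMGCS1 a pair on the other strand, and SREBF2 the element core at -133 to -125 with a CCAAT box at -106 to -102. SREBF1 held neither at this start. RefSeq's table held a promoter for 30 of the 34 measured genes, and where a gene had several starts the first listed was used. A CCAAT box was present in 18 of 30 (60%), against 33.04% of 27305 genes and 34.46% of 15843 protein-coding genes. It was present in 4 of 7 members with an unadjusted p under 0.05 and in 14 of the other 23, and no test was made of this split. By role, 11 of 13 sterol enzymes held a CCAAT box, against 4 of 11 fatty acid enzymes, 2 of 4 regulators and 1 of 2 carriers. The core TCACNCCAC, searched on both strands, was present in 1 of 30, against 0.875% of all genes, and the palindromic E-box CACGTG in 5 of 30, against 6.49%. The core was in 0 of the 7 and 1 of the other 23, and the E-box in 0 of the 7 and 5 of the other 23. No match of 1 motif overlapped a match of another, and in NSDHL a pair of CCAAT boxes on opposite strands overlapped. A match is a run of letters, not a binding site.

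**Figure D3:**
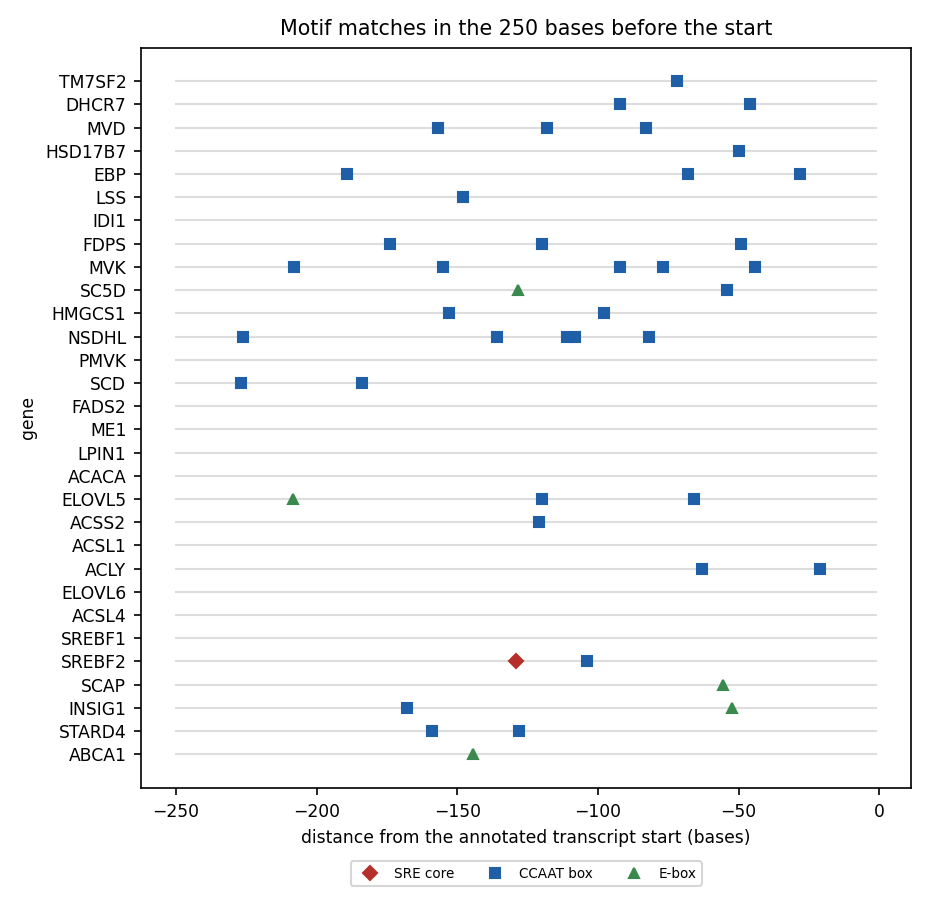
Matches to the element core (red diamonds), the CCAAT box (blue squares) and the E-box (green triangles) along the 250 bases before the start of 30 measured genes, by role and, within a role, from the highest to the lowest log2 fold change; the x axis is the distance from the start in bases. CCAAT boxes are in 11 of the 13 sterol enzymes at the top, and the one element core is in SREBF2.

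For most sterol enzymes the 95% interval of the log2 fold change included 0. Of 15 measured, 2 (13.3%) were higher at an unadjusted p under 0.05, against 8.49% of all genes, and 0 were lower, against 6.39%. Positive values were found for 10 (66.7%), against 51.8% of all genes, and the median log2 fold change was 0.076 (0.012 without MYOSIN10 shRNA array 3). For 12 of the 15 the 95% interval left out a 1.5-fold change in either direction, and for 13 a 2-fold change.

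In the first part of the route, from acetyl-CoA to farnesyl diphosphate, no enzyme was apart between the groups. ACAT2, the cytosolic thiolase, gave -0.028 (interval -0.21 to 0.16). HMGCS1, which makes HMG-CoA and is a strongly sterol-regulated gene, stood at 8.48, 9.06 and 8.69 against 8.49, 8.77 and 8.53, so the highest value was on scramble array 2. Its log2 fold change was -0.14 (-0.51 to 0.22), and its dimmer probe set gave 0.33. The kinases MVK and PMVK, which phosphorylate mevalonate in turn, gave 0.042 and -0.26. PMVK, the lowest of the sterol enzymes, stood at 10.94, 10.50 and 10.85 against 10.67, 10.28 and 10.56, and both arrays numbered 2 were the lowest of their group (limma adjusted p = 0.406). MVD, the decarboxylase that follows, was too dim to read, with values from 4.38 to 6.74 in no order by group and an interval of -1.24 to 1.69, where 4 is the floor of the scale. IDI1, the isomerase of isopentenyl diphosphate, gave 0.076, and FDPS, the farnesyl diphosphate synthase, 0.048 with an interval of -0.14 to 0.23. A dimmer probe set of IDI1, of a kind (suffix _x_at) whose probes can match other transcripts, stood lower on all MYOSIN10 shRNA arrays at -0.48 (limma adjusted p = 0.197 among all kept probe sets). The brighter 2, both of that kind as well, gave 0.076 and 0.011.

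In the middle of the route, where squalene is closed and trimmed, the groups overlapped as well. SQLE, the squalene epoxidase and a rate-limiting step, stood at 9.73, 9.30 and 9.23 against 9.55, 9.71 and 9.54, and scramble array 1 was the highest of all 6. Its log2 fold change was 0.18 (-0.13 to 0.49). LSS, the lanosterol synthase, gave 0.10 (-0.10 to 0.31), and one of its 2 dim probe sets gave -0.64 (limma adjusted p = 0.298). NSDHL, a C4 demethylation enzyme, gave -0.16, and HSD17B7, its partner reductase, 0.18. HSD17B7 was read by an _x_at probe set alone, so its message is uncertain.

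Of the remaining sterol enzymes, DHCR7 and EBP had an unadjusted p under 0.05 and TM7SF2 the highest value. TM7SF2, a C14 sterol reductase, stood at 5.96, 5.78 and 6.39 against 7.51, 5.87 and 7.13, so MYOSIN10 shRNA array 2 lay with the scramble arrays. Its scramble levels were dim, in the range of MVD. The log2 fold change was 0.79, the highest of the 15, with an interval of -0.073 to 1.66, and the adjusted p of limma was 0.385. It was 0.46 without MYOSIN10 shRNA array 1 and 1.28 without MYOSIN10 shRNA array 2. DHCR7, the enzyme of the final reduction to cholesterol, stood at 8.33, 8.47 and 8.78 against 8.92, 9.17 and 8.74. The lowest MYOSIN10 shRNA array lay just below the highest scramble array. The difference was 1.34-fold (interval 1.05 to 1.70; limma adjusted p = 0.246). Its second probe set, at 0.61, had no overlap between groups (limma adjusted p = 0.0784 among all kept probe sets). EBP, the sterol isomerase before it, stood at 11.63, 11.70 and 11.79 against 11.90, 11.92 and 11.82, apart by a narrow margin (1.13-fold, interval 1.00 to 1.27; limma adjusted p = 0.323). Its other kept probe sets gave 0.17, 0.30 and -0.12. SC5D, the desaturase between EBP and DHCR7, gave -0.019 with an interval of -0.25 to 0.22.

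**Figure D4:**
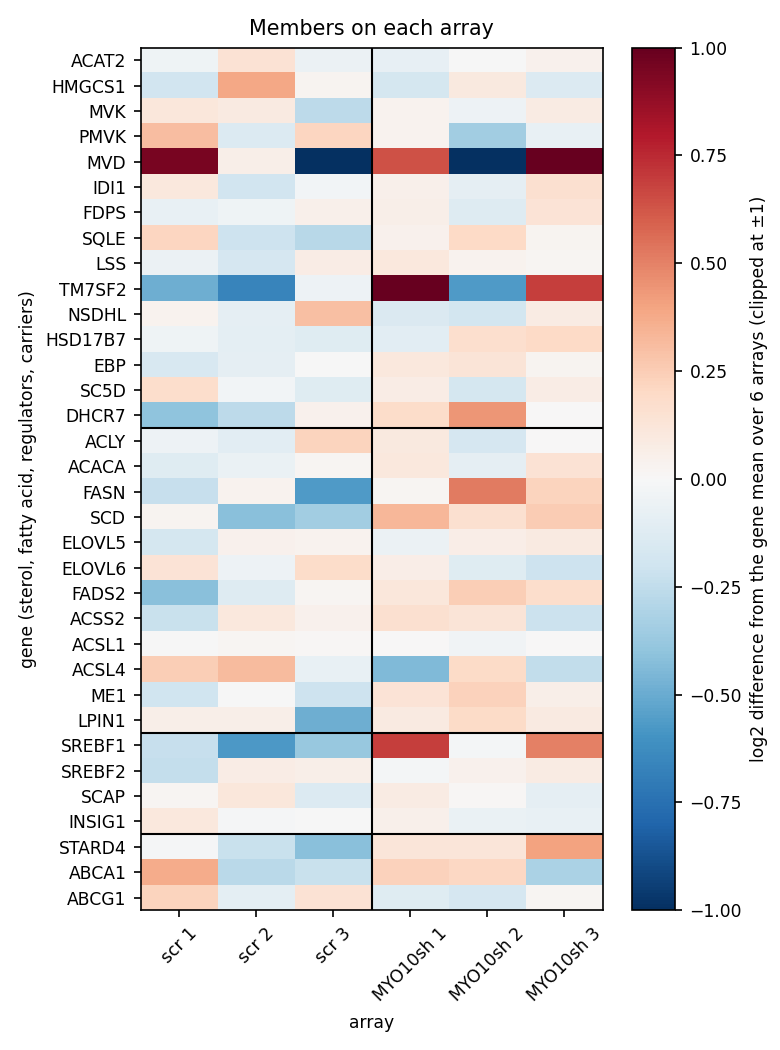
Each gene's difference from its own mean over the 6 arrays (log2, colour clipped at ±1), with scramble arrays on the left and MYOSIN10 shRNA arrays on the right, and black lines between sterol enzymes, fatty acid enzymes, regulators and carriers. SREBF1, SCD, ME1 and STARD4 are paler or blue on the left and red or pale on the right, and MVD and TM7SF2 vary widely within groups.

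The fatty acid enzymes held 4 of the 8 members with an unadjusted p under 0.05, all higher. These were 33.3% of the 12 measured, against 8.49% of all genes. Positive values were found for 8 (66.7%), against 51.8% of all genes, and the median log2 fold change was 0.090 (0.037 without scramble array 1). The interval left out a 2-fold change for all 12 of those measured and a 1.5-fold change for 8.

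SCD, the desaturase that makes oleate and palmitoleate, had the smallest p of all members. It stood at 9.15, 8.70 and 8.78 with scramble shRNA and at 9.46, 9.28 and 9.38 with MYOSIN10 shRNA. Each MYOSIN10 shRNA array was above each scramble array, with the nearest pair 9.28 and 9.15. The means were 8.88 ± 0.24 and 9.37 ± 0.086 (SD, n = 3 each), a 1.41-fold difference (interval 1.14 to 1.74; limma adjusted p = 0.107). The second probe set of SCD gave 0.40, also without overlap.

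FASN, the fatty acid synthase, and FADS2, the delta-6 desaturase of polyunsaturated fatty acids, had positive values. FASN stood at 7.62, 7.88 and 7.28 against 7.87, 8.37 and 8.07. The groups touched, since scramble array 2 at 7.88 was level with MYOSIN10 shRNA array 1 at 7.87. The difference was 1.42-fold (interval 1.05 to 1.93; limma adjusted p = 0.258), and the dimmer probe set of FASN, an _x_at set, gave -0.27 (-0.93 to 0.38). With the mean of both, FASN had 0.12. FADS2 stood at 7.71, 8 and 8.14 against 8.24, 8.37 and 8.30, with no overlap. It was 1.28-fold higher (interval 1.00 to 1.63; limma adjusted p = 0.332).

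ME1, the cytosolic malic enzyme that supplies NADPH for lipid synthesis, stood at 10.95, 11.14 and 10.94 against 11.28, 11.38 and 11.20. The groups were apart, and in each the array numbered 2 was the highest. The difference was 1.21-fold (interval 1.06 to 1.39; limma adjusted p = 0.17), and the second probe set of ME1 gave 0.13 with overlapping groups. LPIN1, a phosphatidate phosphatase, stood at 9.66, 9.66 and 9.11 against 9.69, 9.79 and 9.69. All of its 3 kept probe sets were apart in the same direction, with values of 0.25, 0.32 and 0.41, and the limma adjusted p of the brightest was 0.472. The gap of the brightest was narrow and scramble array 3 lay far below the rest. Without that array the value of the brightest was 0.066. On the next brightest, at 9.49, 9.43 and 8.95 against 9.54, 9.71 and 9.58, scramble array 3 was low in the same way.

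On their brightest probe sets, the enzymes that supply and extend the chains had overlapping groups. ACLY, which releases acetyl-CoA from citrate, gave -0.045 (interval -0.26 to 0.17), and ACACA, the first committed step to fatty acids, gave 0.11 (-0.11 to 0.34). ACSS2, which makes acetyl-CoA from acetate, gave 0.047, and the elongase ELOVL5 0.065, with -0.43 on a dimmer probe set. ELOVL6, which extends palmitate to stearate, stood at 12.09, 11.91 and 12.14 against 12.03, 11.84 and 11.76 on its brightest probe set, a log2 fold change of -0.18 (limma adjusted p = 0.423). The next brightest gave -0.094, with overlapping groups. The dimmest kept probe set of ELOVL6 stood at 9.79, 9.26 and 9.58 against 8.65, 8.92 and 8.96, with no overlap. Its log2 fold change was -0.70 (interval -1.02 to -0.37), with the smallest p of all 73 kept probe sets of the members (limma adjusted p = 0.0505 among 33370 kept probe sets, of which 1.06% were called and 0 of the 73).

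The acyl-CoA ligases, which activate fatty acids, held the lowest value of the fatty acid group. ACSL1 was level at 10.59, 10.61 and 10.61 against 10.60, 10.57 and 10.60. ACSL4, which prefers arachidonate, stood at 11.26, 11.34 and 10.94 against 10.58, 11.21 and 10.78. Its log2 fold change was -0.33 (interval -0.66 to 0.0078; limma adjusted p = 0.349), and MYOSIN10 shRNA array 2 lay within the range of the scramble arrays. The other probe sets of ACSL4 gave -0.057 and -0.29.

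In the carrier group the arrays were apart for STARD4 alone. The protein moves cholesterol between membranes. It stood at 8.90, 8.69 and 8.49 against 9.03, 9.03 and 9.31, with no overlap. The difference was 1.35-fold (interval 1.08 to 1.68; limma adjusted p = 0.18), from 1 probe set. ABCA1 and ABCG1, exporters of cholesterol that are induced by LXR receptors, had overlapping groups. ABCA1 stood at 10.28, 9.65 and 9.70 against 10.15, 10.13 and 9.60, a log2 fold change of 0.082 (-0.32 to 0.49). ABCG1 was dim, at 5.82, 5.49 and 5.74 against 5.47, 5.43 and 5.62, with -0.18 (-0.95 to 0.60).

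Over the members, 83 probe sets carried a single member's symbol and 73 of them were kept. For 22 genes with more than 1 kept, the next brightest had the same sign as the brightest in 16. Of all 39 other kept probe sets, 24 had the sign of the brightest. Among the 8 genes with an unadjusted p under 0.05, 5 had a second kept probe set, and it was positive for SCD, DHCR7, ME1 and EBP and negative for FASN.

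**Figure D5:**
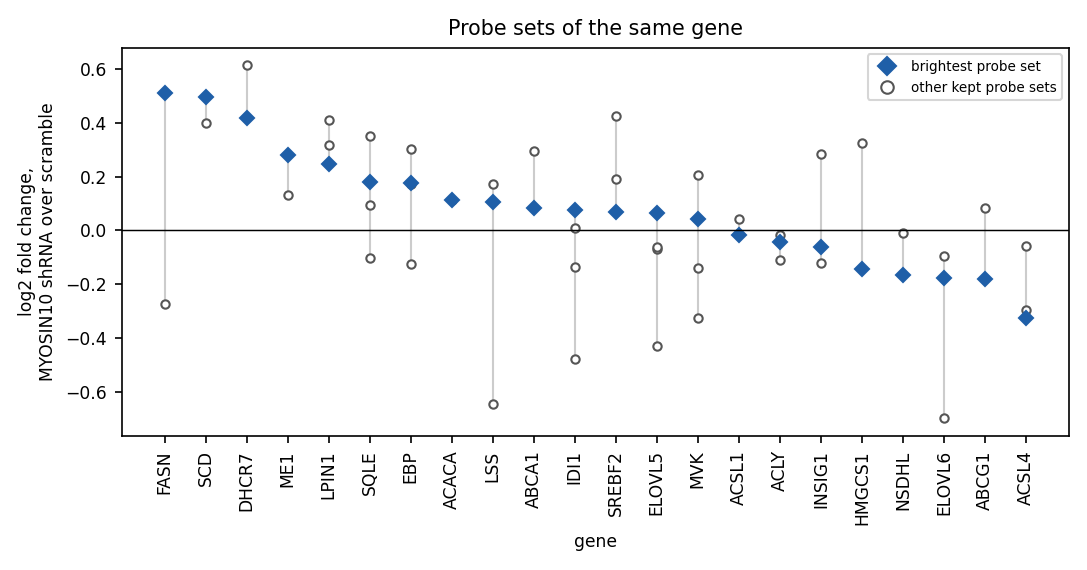
Log2 fold changes (MYOSIN10 shRNA over scramble shRNA) of every kept probe set for the 22 genes that had more than 1, ordered by the brightest probe set (blue diamonds); open circles are the dimmer probe sets and grey lines join those of a gene. SCD, DHCR7, ME1, LPIN1, ACACA, ABCA1 and SREBF2 keep all their points above 0, and ACLY, NSDHL, ELOVL6 and ACSL4 keep all theirs below. Single dimmer probe sets of FASN, LSS, IDI1, ELOVL5 and ELOVL6 lie far below 0.

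On each array, the median difference of the 15 sterol enzymes from their own means over the 6 arrays was -0.043, -0.091 and -0.028 on scramble arrays 1 to 3 and 0.048, -0.053 and 0.072 on MYOSIN10 shRNA arrays 1 to 3. MYOSIN10 shRNA array 2 thus lay among the scramble arrays. On that array MYO10 was also the highest of its group (11.39). There SREBF1, SCD, TM7SF2 and, by a narrow margin, STARD4 were the lowest of their group, while FASN, FADS2, DHCR7, ME1 and EBP were the highest. Whether these levels are linked was not tested. For the 12 fatty acid enzymes it was -0.088, 0.0050 and 0.014 against 0.094, 0.14 and 0.072, with the groups apart. Over all genes it lay between -0.016 and 0.019.

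Genes of the same routes that are not among the 38 were read from lists as well, and 0 were called in each of the 4 lists, against 1.62% of all genes. The counts that follow are at an unadjusted p under 0.05, where 8.49% of all genes were higher and 6.39% lower. Of 13 other sterol pathway genes, 2 (15.4%) were higher and 1 (7.69%) lower, with a median of 0.10. The smallest p was that of GGPS1, the geranylgeranyl diphosphate synthase that leads from farnesyl diphosphate to prenylated proteins, at 0.44 (limma adjusted p = 0.079). Of 16 other genes of fatty acid and glycerolipid synthesis, 1 was higher and 1 lower (6.25% each), with a median of 0.064, and ACSL5, another acyl-CoA ligase, had the smallest p at -0.21 (limma adjusted p = 0.262). Of 4 LXR genes 1 was higher, the receptor gene NR1H3 at 0.51 (limma adjusted p = 0.194). Of 10 genes of fatty acid oxidation, which breaks down what the listed enzymes make, 3 (30%) were higher and 0 lower, with a median of 0.042. HADHA, the alpha subunit of the mitochondrial trifunctional protein, had the smallest p at 0.32 (limma adjusted p = 0.159).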

How the data were processed

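The series measured mRNA on 1-colour Affymetrix arrays, 3 per group. Per the submitters' processing notes, signals were made with MAS5, an algorithm that works on 1 array at a time and brings all arrays to the same mean; the sources used here name neither its version nor its target. As the values show, the authors deposited log2 signals, with a floor of 0 held by 0.754% to 1.01% of 54675 probe sets per array. The common scaling would hide a change in total RNA per cell. Arrays carry no depth, and 3 per group limit the precision.

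Levels are log2(signal + 16) of the unlogged signals, which understates changes of dim genes. Probe sets at or above their array's 40th percentile on at least 3 arrays were kept (33370). Symbols came from the platform annotation (1 symbol for 41097 probe sets, several for 1801, none for 11777), 41043 of them updated by Entrez number through RefSeq (GRCh38.p14). Each gene took its brightest kept probe set. The comparison used limma 3.58.1 under R 4.3.3 (eBayes with a trend, two-sided, no block), adjusted by Benjamini-Hochberg over 14174 genes; intervals are 95% from that fit. The steps were tested on simulated data with changes larger than that of any member, so smaller changes were not tried. Alternatives changed the pseudocount, filter, scaling, probe set rule, variance model, weights, block or arrays. All 38 members are named, with values on every array for those with an unadjusted p under 0.05, the extremes of each role group and some others chosen after their values were seen; further genes are the 1 with the smallest p per list. Members and lists were chosen with earlier results of these data known. Figures used Python 3.11.15 and matplotlib 3.10.9.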

Additional observations from a re-analysis of the deposited data

How the results depend on the processing

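With 17 alternatives, all 8 genes with an unadjusted p under 0.05 kept a positive sign; their p stayed under 0.05 in all 17 for SCD and SREBF1, 16 for ME1, 15 for STARD4, 14 for DHCR7, 13 for FASN, 9 for EBP and 7 for FADS2, and 18 of 34 members kept their sign throughout. The number of members called, 0, became 2 with array weights (SCD and SREBF1) and 2 with the replicate block (the same pair, limma adjusted p = 0.0396 and 0.045), 0 to 1 with single arrays left out (ME1 without scramble array 2, limma adjusted p = 0.0365) and 4 without both arrays numbered 2 (SREBF1, ME1 and TM7SF2 higher, ACSL4 lower). All-gene calls moved too, from 229 to 791, 611, 964 and 1224 in these 4 settings, and the cause was not tested. In other settings all-gene calls fell, to 7 for eBayes without a trend, 111 with the mean of probe sets and 126 without the filter. In those settings 0 members were called. Deviations of same-numbered arrays correlated at 0.059, 0.163 and 0.040 for numbers 1 to 3, so the block is not taken as a pairing. Members lower at an unadjusted p under 0.05 numbered 0. They numbered 1 with the mean of probe sets, 2 with weights, 2 with the block and 3 without both arrays numbered 2. Of all genes, 6.04%, 9.18%, 7.98% and 10.9% were lower in these settings. With single arrays left out members lower numbered 0 to 2, against 3.85% to 10.3% of all genes. Members higher, 8, numbered 4 to 7 with single arrays left out, against 5.94% to 11.1% of all genes. They numbered 4 without MYOSIN10 shRNA array 3 (6.01% of all genes) and 5 without MYOSIN10 shRNA array 2 (8.43%). The median of the sterol enzymes ran from 0.012 (without MYOSIN10 shRNA array 3) to 0.12 and that of the fatty acid enzymes from 0.037 (without scramble array 1) to 0.12 with single arrays left out.

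The other 16 members turned sign in some setting. With the mean of probe sets these were HMGCS1 (0.091), MVK (-0.053), IDI1 (-0.13), LSS (-0.12), ELOVL5 (-0.12), ACSL1 (0.013) and INSIG1 (0.034), with quantile scaling SCAP (-0.0094), with weights SC5D (0.015), and without both arrays numbered 2 ACAT2 (0.031), SC5D (0.047) and ABCA1 (-0.12). With single arrays left out, the ranges that crossed 0 were SC5D -0.084 to 0.065, ELOVL5 -0.0071 to 0.11, ACSS2 -0.051 to 0.17, SREBF2 -0.033 to 0.12, ACAT2 -0.063 to 0.038, HMGCS1 -0.28 to 0.012, ABCA1 -0.032 to 0.29, MVK -0.080 to 0.11, MVD -0.39 to 0.94, ACLY -0.11 to 0.056, SCAP -0.067 to 0.058 and FDPS -0.0094 to 0.12.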
